A study of Mus musculus with 4 samples.

Results

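The genes of the RNA polymerase II (Pol II) initiation and elongation machinery were examined in Treg cells of the large intestine (LI) with and without Setd2. They were chosen by gene name alone. The rule took all names starting with Polr2, Supt, Gtf2 or Ints, names starting with Med or Taf and a digit, and a short list of single elongation factors such as Cdk9, Paf1 and Iws1. It found 131 of the 53379 genes in the deposited table. The table held 4 RNA-seq libraries, each of CD3+CD4+YFP+ Treg cells that were sorted from LI of adult C57BL/6 mice at steady state. The 2 control libraries came from Foxp3Cre-YFP mice with 1 floxed copy of Setd2 (genotype label Setd24flox/+Foxp3-YFPcre). The 2 KO libraries came from littermates with 2 floxed copies (Setd24flox/floxFoxp3-YFPcre). Each library was a pool of 2 to 3 mice. Control and KO mice both carried the Cre, which is expressed from the Foxp3 locus together with YFP, so the control Treg cells can keep only 1 intact copy of Setd2.

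Pol II is recruited to promoters by general initiation factors and by Mediator, a large bridge between enhancer-bound factors and the polymerase. Soon after initiation the polymerase is held by the pausing factors DSIF and NELF, and it is released when the kinase P-TEFb phosphorylates these factors and the repeats of the C-terminal domain (CTD) of the largest Pol II subunit. Elongating polymerase travels with the PAF1 complex, SPT6, IWS1 and the histone chaperone FACT. Setd2 binds the phosphorylated CTD and trimethylates H3K36 in the bodies of transcribed genes, so this machinery is what places Setd2 on chromatin.

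Levels are FPKM, in which fragment counts are scaled to transcript length and to the mapped fragments of the library, so that genes can be compared per length. Each gene was tested for a difference between the groups by limma, fitted to log2(FPKM + 1) of the 7639 protein-coding genes whose mean FPKM exceeded 5 in control or KO. Log2 fold changes are of KO over control on that scale with their standard error (SE), and adding 1 makes the change of low genes look smaller. Of the 131 genes, 112 were tested and 19 were not. The smallest p an exact permutation test could reach for any gene with 2 libraries per group is 0.333, and the limma p-values draw on the variance pooled over genes. They measure the spread between pools. In bulk RNA, fewer cells of a type and less RNA per cell cannot be told apart.

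The 4 columns held nearly the same values at each rank, as quantile normalization gives, and the depth of the libraries is unknown. A change in total mRNA per cell cannot be seen in such values. Control 2 listed 28426 genes at 0, compared with 33223 to 33957 in the other 3 libraries. Setd2 itself had an FPKM of 38.19 and 27.36 in control 1 and 2, and 26.33 and 36.30 in KO 1 and 2. The groups overlapped, and since the FPKM covers the whole gene and not the floxed part alone, it could not check the labels. Among Treg and T cell markers, Foxp3 was low in every library (2.62 to 5.61). Tnfrsf18 (1899 to 2218), Cd4 (130.8 to 220.4), Il2ra (152.14 to 183.66) and Cd3e (148.95 to 186.61) were high, with an unadjusted p above 0.05 by limma. Ctla4 was higher in KO, with 1593 and 1701 in control and 2160 and 2310 in KO (log2 fold change 0.44, adjusted p = 0.132 by limma). Ikzf2, which encodes Helios, was lower in KO, with 120.75 and 115.57 in control and 84.12 and 98.36 in KO (log2 fold change -0.37, adjusted p = 0.222 by limma). Both had an unadjusted p below 0.05. The epithelial keratin Krt8 was at most 0.11, but Lyz2 (127.83 to 167.97) and Jchain (111.97 to 168.57), markers of myeloid and plasma cells, were present in all 4 libraries. The 4 epithelial markers had a summed FPKM of 28.8 and 30.9 in control and 20.2 and 21.3 in KO, nearly all from Epcam, and the 4 proliferation markers were higher in KO. The part of any of these marker differences in the results was not tested.

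No gene of the machinery reached an adjusted p below 0.05 by limma with Benjamini-Hochberg adjustment, where 0.589% of all genes tested did (0.314% higher and 0.275% lower in KO). The smallest adjusted p was 0.0719, for Med6. At an unadjusted p below 0.05, 7 genes were higher and 8 lower in KO, or 13.4% of the 112, compared with 16.2% of all genes tested. By direction, 6.25% of the machinery genes were higher and 7.14% lower, beside 8.61% and 7.57% of all genes. The median log2 fold change was -0.0054, with quartiles at -0.19 and 0.20. Over all genes tested the median was -0.0039 and the quartiles -0.18 and 0.18. The KO libraries lay on the same side of both control libraries for 53 of the 112 genes, or 47.3%, while the share over all genes was 47.1%. The machinery as a list was therefore called at a rate near the background.

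These counts moved when single libraries were left out, and so did the counts over all genes tested. A log2 fold change over 0.5 in either direction was seen for 9 genes (8.04%), compared with 9.63% of all genes tested.

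**Figure D1:**
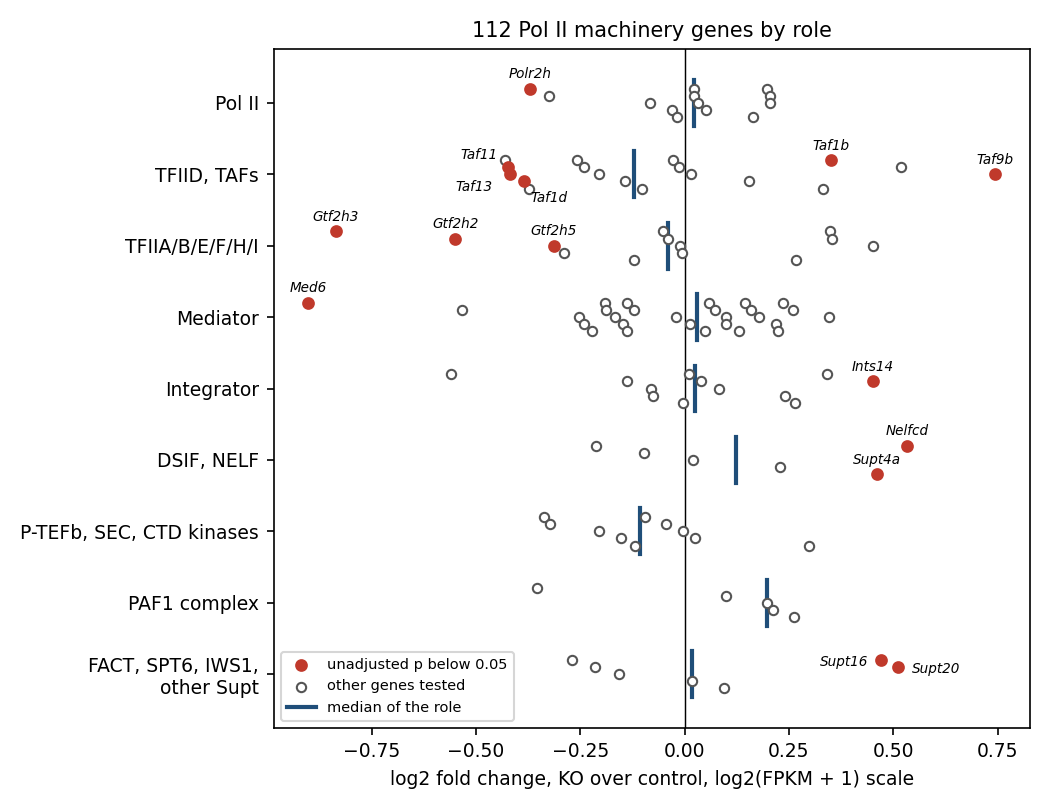
Log2 fold change (KO over control of log2(FPKM + 1), x axis) of the 112 tested genes by role (y axis). Each point is 1 gene, filled points had an unadjusted p below 0.05 in limma, and the bar is the median of the role. The medians lie between -0.12 (TFIID and TAFs) and 0.20 (PAF1 complex), and the filled points stand on both sides of 0.

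Of the 15 genes at an unadjusted p below 0.05, 4 stayed there in every alternative fit, with any library left out included. These were Med6, Taf9b, Supt20 and Supt4a. How many of all genes tested stayed there in every fit was not counted, so the 4 have no background share beside them. The promoters of these 4 genes are given here with that of Polr2a, which encodes the catalytic subunit. They are control regions of genes that are described singly below. Each run covers 250 bases before to 30 bases after the RefSeq start site, 5′ to 3′ on the strand of the gene (GRCm38.p6). Capitals mark a TATA box (TATAAA), an ETS motif (CCGGAAG) or a YY1 motif (AAGATGGC) on either strand.
Polr2a, chr11:69758604-69758883, minus strand: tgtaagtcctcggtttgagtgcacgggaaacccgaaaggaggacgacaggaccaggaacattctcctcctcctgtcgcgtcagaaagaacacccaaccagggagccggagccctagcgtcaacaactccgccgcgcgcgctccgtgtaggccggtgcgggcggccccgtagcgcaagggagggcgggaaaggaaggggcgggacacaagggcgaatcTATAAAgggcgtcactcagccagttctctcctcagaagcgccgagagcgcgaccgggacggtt
Med6, chr12:81594979-81595258, minus strand: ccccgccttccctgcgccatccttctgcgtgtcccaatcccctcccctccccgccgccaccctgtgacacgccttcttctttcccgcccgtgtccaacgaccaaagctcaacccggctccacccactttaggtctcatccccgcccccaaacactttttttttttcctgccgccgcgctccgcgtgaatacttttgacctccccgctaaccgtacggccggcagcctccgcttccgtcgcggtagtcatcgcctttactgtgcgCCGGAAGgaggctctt
Taf9b, chrX:106221129-106221408, minus strand: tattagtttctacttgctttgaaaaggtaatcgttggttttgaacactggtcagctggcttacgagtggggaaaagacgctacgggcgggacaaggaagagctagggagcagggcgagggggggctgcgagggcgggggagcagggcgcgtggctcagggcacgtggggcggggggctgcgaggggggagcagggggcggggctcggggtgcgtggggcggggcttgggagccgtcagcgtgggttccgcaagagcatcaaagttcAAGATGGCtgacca
Supt20, chr3:54692565-54692844, plus strand: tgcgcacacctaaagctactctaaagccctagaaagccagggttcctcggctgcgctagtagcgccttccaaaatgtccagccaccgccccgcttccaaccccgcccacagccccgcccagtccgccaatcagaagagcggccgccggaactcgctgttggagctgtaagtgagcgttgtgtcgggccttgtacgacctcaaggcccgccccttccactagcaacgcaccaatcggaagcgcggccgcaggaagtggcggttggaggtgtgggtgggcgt
Supt4a, chr11:87737301-87737580, plus strand: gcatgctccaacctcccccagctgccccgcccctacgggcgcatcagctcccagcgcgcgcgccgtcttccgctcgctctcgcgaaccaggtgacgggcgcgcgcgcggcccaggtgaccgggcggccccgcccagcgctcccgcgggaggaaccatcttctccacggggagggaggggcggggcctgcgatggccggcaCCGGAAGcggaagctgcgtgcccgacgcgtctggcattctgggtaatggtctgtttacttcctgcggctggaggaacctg

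Polr2a was the only gene among these 5 with a TATA box, which began at position -33 from the start. Med6 and Supt4a held an ETS motif, Taf9b held a YY1 motif at position 17, and the Supt20 window held none of the 3. A promoter was matched by symbol for 94 of the 112 genes. An ETS motif stood in 30 of them (31.9%), compared with 22% of the 6081 tested genes with a promoter and 8.45% of all 32851 promoters of the table. A TATA box was found in 9 (9.57%, beside 6.46% of tested genes and 13.1% of all promoters) and a YY1 motif in 6 (6.38%, beside 4.31% and 2.29%). These are matches of letters within the windows and do not show that a factor bound there.

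Among the Mediator genes, Med6 (ENSMUSG00000002679, chr12:81573557-81595008, GRCm38), which encodes a subunit of the head module, was lower in KO. Its FPKM was 47.03 and 35.81 in control 1 and 2, and 21.30 and 21.68 in KO 1 and 2. The KO libraries were below both control libraries and lay close together, while the control libraries differed. The mean was 41.4 ± 7.93 (SD, n = 2) in control and 21.5 ± 0.269 in KO. Its log2 fold change was -0.90 (SE 0.16, 95% interval -1.29 to -0.52, adjusted p = 0.0719 by limma). It lay between -1.09 and -0.71 with any library left out.

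The other 27 tested Mediator genes had an unadjusted p above 0.05. Thus 3.57% of the Mediator genes were below it, beside 16.2% of all genes tested. Of the 28, 15 had a log2 fold change above 0, beside 3772 of all 7639 genes tested. Med28 had the highest mean FPKM of Mediator, with 247.82 and 219.76 in control and 231.20 and 239.70 in KO. Its log2 fold change was 0.01, with a 95% interval of -0.25 to 0.28. Cdk8, the kinase of the complex, had an FPKM of 11.17 and 8.0 in control and 7.87 and 9.18 in KO, and the groups overlapped. Large differences between libraries of a group were seen for the tail subunit genes Med15, Med16, Med24 and Med25. They were also seen for Med13 (17.66 and 10.1 in control) and Med26 (10.44 and 16.27 in control). For Med25 the FPKM was 5.69 in control 1 and 11.71 in control 2, compared with 6.36 in KO 1 and 4.51 in KO 2.

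TFIID, the factor that binds core promoters, is built from TBP and TBP-associated factors (TAFs), and some TAFs serve other complexes. Taf9b (ENSMUSG00000047242, chrX:106206883-106221158), which encodes a paralog of TAF9 found in TFIID and in the SAGA coactivator, was higher in KO. Its FPKM was 17.15 and 15.30 in control 1 and 2, and 27.16 and 28.49 in KO 1 and 2. The groups did not overlap, and the ratio of the KO mean to the control mean was 1.71. The log2 fold change was 0.74 (SE 0.15, 95% interval 0.40 to 1.08, adjusted p = 0.0816 by limma), with 0.67 to 0.82 over the fits that left out a library. Taf9 had an FPKM of 12.85 and 16.73 in control and 12.24 and 9.22 in KO, which gave a log2 fold change of -0.43 (95% interval -0.92 to 0.06, adjusted p = 0.365 by limma). Thus the paralogs had estimates of opposite sign, and the difference between them was not tested. The exons of Taf9 are shared over 73.8% of their length with Ak6 on the same strand, whose mean FPKM was 164.9 and highest FPKM 200.6, so the value of Taf9 depends on how reads were divided between these genes.

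Taf11 and Taf13, whose products pair with each other in TFIID, were both lower in KO. Taf13 had an FPKM of 61.77 and 54.94 in control and 45.48 and 41.22 in KO, which gave a log2 fold change of -0.42 (SE 0.13, adjusted p = 0.203 by limma). Taf11 had 26.45 and 21.43 in control and 16 and 19.15 in KO, which gave a log2 fold change of -0.42 (SE 0.17, adjusted p = 0.292). Neither gene overlapped between the groups, which also held for 47.1% of all genes tested. The unadjusted p of Taf13 was 0.0723 without control 1 and 0.101 without KO 2, and that of Taf11 was 0.208 without control 1 and 0.228 without KO 1.

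Taf1d and Taf1b, which encode subunits of the RNA polymerase I factor SL1, differed in opposite directions. Taf1d had the highest mean FPKM of the TAF genes, with 95.28 and 88.43 in control and 68.78 and 71.27 in KO. Its log2 fold change was -0.39 (SE 0.11, adjusted p = 0.186 by limma), and the unadjusted p was 0.0535 without control 1 and 0.0717 without KO 1. Taf1b had 22.97 and 20.70 in control and 27.01 and 29.15 in KO, which gave a log2 fold change of 0.35 (SE 0.14, adjusted p = 0.292). Its unadjusted p was 0.156 without control 2, 0.0941 without KO 1 and 0.199 without KO 2. The other 13 tested genes of this group, Tbp included, had an unadjusted p above 0.05. Thus 27.8% of the group were below it, beside 16.2% of all genes tested. Tbp had 39.26 and 32.30 in control and 31.74 and 32.62 in KO, and the log2 difference of -0.14 had a 95% interval of -0.48 to 0.20. Of the 18 tested genes, 12 had a log2 fold change below 0, beside 3867 of all 7639 genes tested, and the median was -0.12.

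TFIIH opens the promoter and carries the kinase Cdk7, which phosphorylates the CTD at initiation. Gtf2h2, Gtf2h3 and Gtf2h5, which encode core subunits of TFIIH, were lower in KO. The FPKM of Gtf2h2 was 20.64 and 17.46 in control 1 and 2, and 11.05 and 14.47 in KO 1 and 2, and that of Gtf2h5 was 35.82, 37.55, 28.06 and 30.64. Gtf2h3 had 11.34, 9.41 and 8.15 in control 1, control 2 and KO 1 but 3.41 in KO 2, so much of its difference came from this library. The groups did not overlap for any of the 3 genes, which also held for 47.1% of all genes tested. The log2 fold change was -0.55 for Gtf2h2, -0.84 for Gtf2h3 and -0.31 for Gtf2h5 (adjusted p = 0.223, 0.292 and 0.303 by limma). Their unadjusted p-values of 0.0205, 0.0416 and 0.0475 lay close to the threshold, and each was lost when certain libraries were left out. For Gtf2h2 it was 0.0945 without control 1 and 0.151 without KO 1, and for Gtf2h3 0.121 without control 1 and 0.271 without KO 2, where the log2 fold change was -0.31. For Gtf2h5 it lay between 0.0789 and 0.227 with any library left out.

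The other TFIIH genes covered by the naming rule and tested, Gtf2h1 and Cdk7, had an unadjusted p above 0.05. Over all genes tested, 16.2% were below it. The rule left out the TFIIH genes Ercc2, Ercc3, Ccnh and Mnat1, which were tested in a separate list. Their log2 fold changes were -0.07, 0.01, 0.25 and -0.06, each with an unadjusted p above 0.05 by limma. Gtf2h1 had an FPKM of 32.30 and 30.35 in control and 30.51 and 30.37 in KO. Cdk7 had 27.85 and 24.97 in control and 22.53 and 25.89 in KO, which gave a log2 fold change of -0.12 with a 95% interval of -0.47 to 0.22. Gtf2h4 was below the filter, with 1.86 to 4.17 in the 4 libraries. Among the other initiation factors, Gtf2b, which bridges TBP and the polymerase, had 58.04 and 65.80 in control and 50.33 and 50.52 in KO (log2 fold change -0.29, adjusted p = 0.315 by limma). Both subunits of TFIIE, Gtf2e1 and Gtf2e2, were above their control values in both KO libraries. Their log2 fold changes were 0.45 and 0.35, with adjusted p-values of 0.354 and 0.362 by limma. Over all genes tested, 47.1% did not overlap in either direction. Gtf2f1, a subunit of TFIIF and the gene with the highest mean FPKM of this group, had 74.74 and 74.62 in control and 79.59 and 68.92 in KO. Its log2 fold change was -0.01, with a 95% interval of -0.30 to 0.28.

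**Figure D2:**
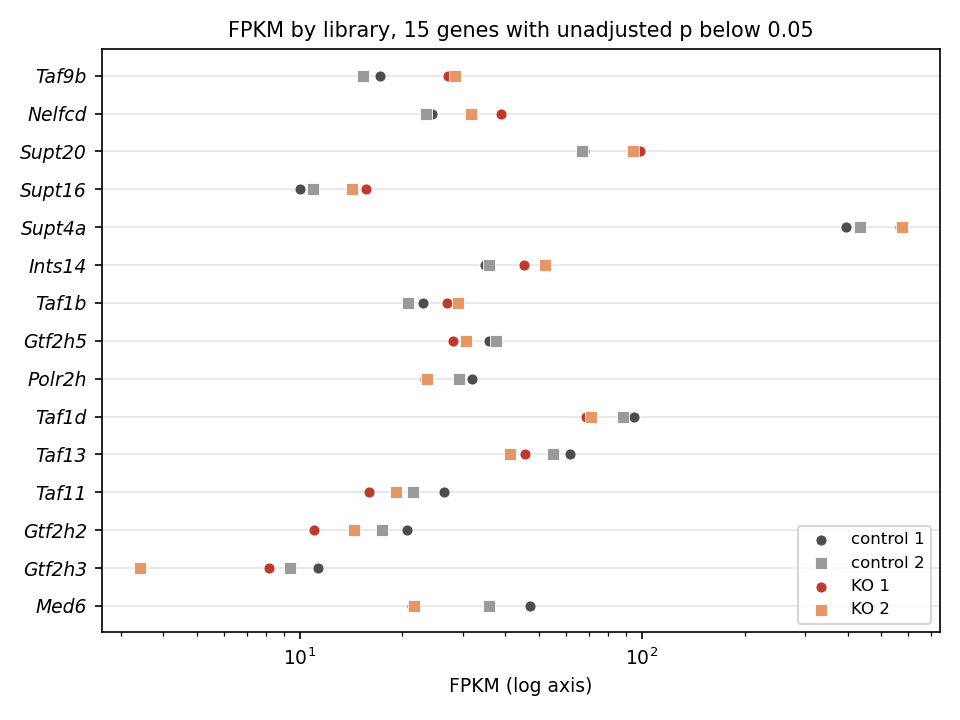
FPKM (x axis, log scale) in each of the 4 libraries for the 15 machinery genes with an unadjusted p below 0.05, ordered by log2 fold change (y axis). Points are single libraries. The KO points lie to the right of the control points for 7 genes, with Taf9b at the top, and to the left for 8 genes, with Med6 at the bottom.

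Among the 13 genes whose names start with Polr2, which encode Pol II subunits and the Pol II-associated protein Polr2m, 1 had an unadjusted p below 0.05. That was 7.69% of them, beside 16.2% of all genes tested. Polr2h, whose product is shared by RNA polymerases I, II and III, had an FPKM of 31.95 and 29.30 in control 1 and 2, and 23.25 and 23.66 in KO 1 and 2. The groups did not overlap, and the log2 fold change was -0.37 (SE 0.14, 95% interval -0.69 to -0.05, adjusted p = 0.249 by limma). The unadjusted p was 0.118 without control 1, 0.118 without KO 1 and 0.0997 without KO 2. A transcript of AC157515.1, with a mean FPKM of 5.12, is 98.0% identical to that of Polr2h over 46.8% of its length. Some reads of this stretch may therefore match both.

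Polr2a, the largest and catalytic subunit, had an FPKM of 11.09 and 13.89 in control and 10.78 and 8.73 in KO. Each KO library was below both control libraries, but KO 1 and control 1 differed by little. The log2 fold change was -0.33, with a 95% interval of -0.79 to 0.14 (adjusted p = 0.460 by limma). Polr2b, the second largest subunit, had 45.81 and 51.35 in control and 48.21 and 46.67 in KO, which gave a log2 fold change of -0.03. Over the 13 genes the log2 fold changes ran from -0.37 to 0.20 and their median was 0.02.

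The levels of these genes differed widely although all but Polr2m encode parts of 1 enzyme. Polr2d had the highest FPKM, 167.3 to 193.2 over the 4 libraries, and was above all other Polr2 genes in every library. Polr2e, Polr2m and Polr2j followed, with means of 134.5, 129.2 and 119.0, and their ranges overlapped. Polr2g (83.9 to 112.8) overlapped the lower end of Polr2j and, narrowly, Polr2c (79.7 to 84.1). Polr2k (48.4 to 70.8) and Polr2f (54.8 to 61.8) could not be ordered. Polr2b (45.8 to 51.4) overlapped Polr2k but lay below Polr2f. Polr2h, Polr2i and the pair of Polr2a and Polr2l followed in this order without overlap, and within the pair the ranges of 8.73 to 13.89 and 8.70 to 10.57 overlapped. Polr2i shares 26.8% of its exonic length with Tbcb on the other strand, whose mean FPKM was 115.0, and whether reads were counted by strand is not given in the sources used here.

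**Figure D3:**
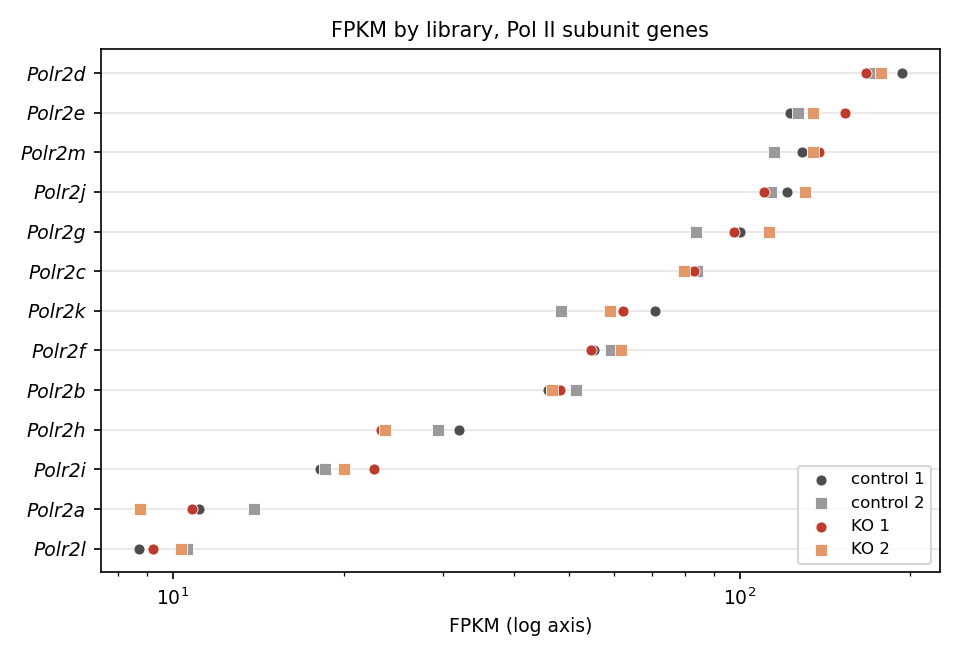
FPKM (x axis, log scale) of the 13 Polr2 genes in the 4 libraries, ordered by mean (y axis). Points are single libraries. The spread between genes, from a mean of 9.70 (Polr2l) to 177.6 (Polr2d), exceeds the spread between libraries of any gene, and the KO points fall outside the control range on the same side for 5 of the 13 genes, beside 47.1% of all genes tested.

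Of the pausing factors, DSIF is a pair of SPT4 and SPT5, encoded by Supt4a and Supt5, and NELF holds the paused polymerase with it. Supt4a (ENSMUSG00000020485, chr11:87737552-87743623) was higher in KO and had the highest FPKM of all 131 genes. It had 395.65 and 436.39 in control 1 and 2, and 569.36 and 575.77 in KO 1 and 2. Both KO libraries lay above both control libraries, and the ratio of the means was 1.38. The log2 fold change was 0.46 (SE 0.11, 95% interval 0.21 to 0.71, adjusted p = 0.116 by limma), and it lay between 0.39 and 0.53 with any library left out. Supt4b, which the annotation gives as a processed pseudogene, matches 49.7% of the Supt4a transcript at 99.1% identity, and its FPKM was at most 2.96.

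Supt5, the larger DSIF subunit, had an FPKM of 48.65 and 63.52 in control and 59.49 and 45.20 in KO. The groups overlapped, and the log2 fold change of -0.10 had a 95% interval of -0.53 to 0.33. Whether the change of Supt4a differed from that of Supt5 was not tested. Of the NELF genes, Nelfcd was higher in KO, with 24.37 and 23.41 in control and 38.70 and 31.68 in KO. Its log2 fold change was 0.53 (SE 0.15, adjusted p = 0.166 by limma), and its unadjusted p was 0.0900 without KO 1. Nelfa, Nelfb and Nelfe had log2 fold changes of -0.21, 0.02 and 0.23 and unadjusted p-values of at least 0.235.

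P-TEFb is the kinase Cdk9 with cyclin T1 or T2, and HEXIM1 keeps it inactive. None of the 10 tested genes for P-TEFb, the super elongation complex and the CTD kinases had an unadjusted p below 0.05. Over all genes tested the share was 16.2%. Cdk9 had an FPKM of 18.56 and 18.89 in control and 25.95 and 20.81 in KO, which gave a log2 fold change of 0.30 with a 95% interval of -0.08 to 0.67. Ccnt1 had the highest mean FPKM of this group, with 75.13 and 72.62 in control and 75.75 and 67.72 in KO, and its interval was -0.33 to 0.24. Hexim1 had 14.92 and 10.14 in control and 9.26 and 9.84 in KO, so its estimate of -0.34 rested largely on control 1. Without control 1 its log2 fold change was -0.08. Ell, Cdk12, Ccnt2, Aff4 and Aff1 had log2 fold changes of -0.32, -0.20, -0.15, -0.12 and -0.10, and those of Cdk13 and Ell2 were -0.0045 and 0.03. Of the 10, 8 were below 0, beside 3867 of all 7639 genes tested, and the median was -0.11. The estimates of Cdk13, Ccnt1, Aff1 and Ell2 crossed 0 when certain libraries were left out. Ccnk, the cyclin of Cdk12 and Cdk13, was under the filter at 0.67 to 1.80.

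The PAF1 complex accompanies elongating polymerase. Its 5 genes had unadjusted p-values of at least 0.140, while 16.2% of all genes tested were below 0.05. Paf1 had an FPKM of 83.36 and 72.43 in control and 89.48 and 88.87 in KO, and Leo1 had 36.75 and 28.18 in control and 39.07 and 38.51 in KO. For these genes the KO libraries lay above both control libraries, while 47.1% of all genes tested did not overlap in either direction. Paf1 and Leo1 had log2 fold changes of 0.20 (95% interval -0.09 to 0.48) and 0.26 (-0.11 to 0.63). Ctr9 and Rtf1 had 0.21 and 0.10, and Cdc73 had -0.35, with 12.22 and 7.73 in control and 8.89 and 6.14 in KO. Rtf1 and Cdc73 varied between libraries of a group by more than they differed between the groups.

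**Figure D4:**
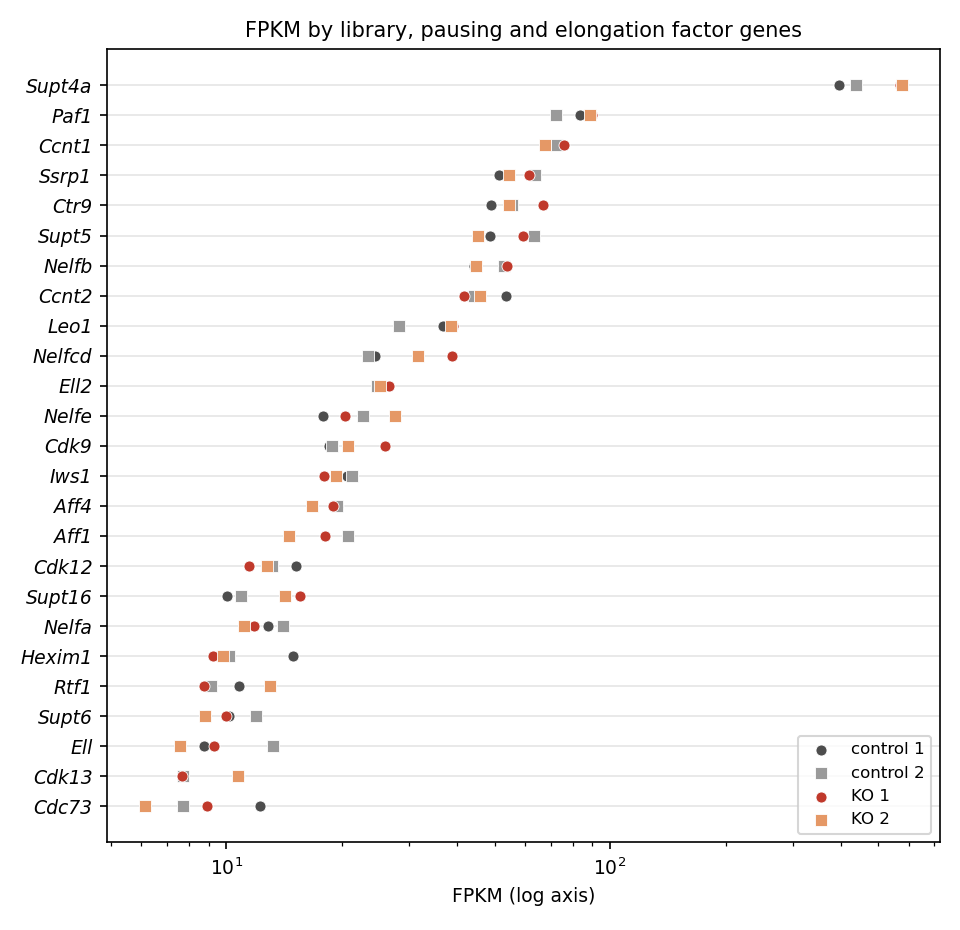
FPKM (x axis, log scale) of 25 genes for pausing and elongation factors in the 4 libraries, ordered by mean (y axis). Points are single libraries. Supt4a stands apart at 395.65 to 575.77. The KO points lie to the right of the control points for Supt4a, Nelfcd, Supt16, Cdk9, Paf1 and Leo1. They lie to the left for Nelfa, Supt6, Iws1, Hexim1, Cdk12 and Aff4. Among all genes tested, 47.1% did not overlap in either direction.

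SPT6 and IWS1 bind each other and the CTD of elongating polymerase, and both are known partners of Setd2 recruitment. Supt6 had an FPKM of 10.17 and 11.99 in control and 10.00 and 8.79 in KO, and Iws1 had 20.59 and 21.22 in control and 17.97 and 19.32 in KO. For both genes the KO values were below both control values, while 47.1% of all genes tested did not overlap in either direction. The log2 fold changes were -0.22 (95% interval -0.65 to 0.22) and -0.16 (-0.49 to 0.18), with adjusted p-values of 0.616 and 0.638 by limma. Differences of up to these bounds could not be told from no difference with 2 libraries per group.

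FACT consists of SPT16 and SSRP1. Supt16 had an FPKM of 10.02 and 10.96 in control and 15.60 and 14.26 in KO, which gave a log2 fold change of 0.47 (SE 0.17, adjusted p = 0.234 by limma). The groups did not overlap, but the unadjusted p was 0.0845 without control 1, 0.130 without KO 1 and 0.0601 without KO 2. Ssrp1 had 51.30 and 63.87 in control and 61.63 and 54.58 in KO, and the log2 difference of 0.02 had a 95% interval of -0.33 to 0.37. Supt16 shares 21.0% of its exonic length with Rpgrip1 on the other strand, which had a mean FPKM of 72.2 and at most 87.02. FACT is also used in DNA replication, and proliferation markers were higher in KO, with a summed FPKM of Mki67, Top2a, Cdk1 and Birc5 of 52.7 and 53.4 in control and 96.0 and 91.2 in KO. All 4 markers had an unadjusted p below 0.05, and their part in the difference of Supt16 was not tested.

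Supt20 (ENSMUSG00000027751, chr3:54692807-54728766) encodes a core subunit of SAGA, the coactivator that also contains TAF9 or TAF9B. It was higher in KO, with an FPKM of 67.89 and 67.10 in control 1 and 2, and 98.68 and 94.64 in KO 1 and 2. The libraries of each group lay close together, and the mean was 67.5 ± 0.559 (SD, n = 2) in control and 96.7 ± 2.86 in KO. Its log2 fold change was 0.51 (SE 0.11, 95% interval 0.25 to 0.77, adjusted p = 0.0970 by limma), and 0.48 to 0.54 with any library left out. On the other strand, 1.4% of its exonic length overlaps Exosc8 (mean FPKM 136.1) and 10.3% overlaps Gm21958 (mean FPKM 2.88). The other SAGA genes of the list, Supt3, Supt7l, Taf5l, Taf6l and Taf12, had log2 fold changes of 0.09, -0.27, -0.37, 0.15 and 0.33 and unadjusted p-values above 0.05.

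Integrator cleaves nascent transcripts of paused polymerase and of small nuclear RNA genes. Of its 12 tested genes, Ints14 alone (8.33%) had an unadjusted p below 0.05, beside 16.2% of all genes tested. It had an FPKM of 34.82 and 35.81 in control and 45.37 and 52.17 in KO, which gave a log2 fold change of 0.45 (SE 0.13, adjusted p = 0.180 by limma). The groups did not overlap, and without KO 2 the unadjusted p was 0.101. Ints13 and Ints10, which form a module with INTS14, had log2 fold changes of -0.08 and -0.07. Ints11, the nuclease, had the highest mean FPKM of the complex, with 41.45 and 50.92 in control and 51.11 and 46.37 in KO, and the groups overlapped. Ints1 was low, with 4.77 and 5.62 in control and 3.43 and 2.97 in KO. The log2 difference of -0.56 had an adjusted p of 0.313 by limma. Ints1 passed the FPKM filter of 5 only through its control mean of 5.195, as its KO mean was 3.20. A gene that enters through control alone is more likely to look lower in KO, so this difference cannot be read by itself. Ints1 is also counted above among the genes with a change over 0.5 and those without overlap.

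Ints14 and Taf1d lie on chromosome 9, as does Setd2. In all, 6 machinery genes lie on this chromosome, at distances of 35.1 to 95.3 Mb from Setd2, and none was within 20 Mb of the targeted gene.

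Differences between the libraries of a group were also compared. The difference of control 2 over control 1 and that of KO 1 over KO 2 had a Pearson r of 0.41 across the 112 genes and of 0.30 across all 7639. These points come from the same 4 libraries, and no p is given since genes are not replicates. In 31 of the 112 genes both differences were above 0 and in 41 both were below 0, beside 2343 and 2475 of all 7639 genes, so the shares were close to the background. The median size of the difference between the 2 control libraries was 0.17 on the log2 scale and that between the 2 KO libraries 0.15, beside 0.19 and 0.16 over all genes tested. Genes high in control 2 and KO 1 included Med26, Med16, Med24, Med25, Supt5 and Polr2a.

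**Figure D5:**
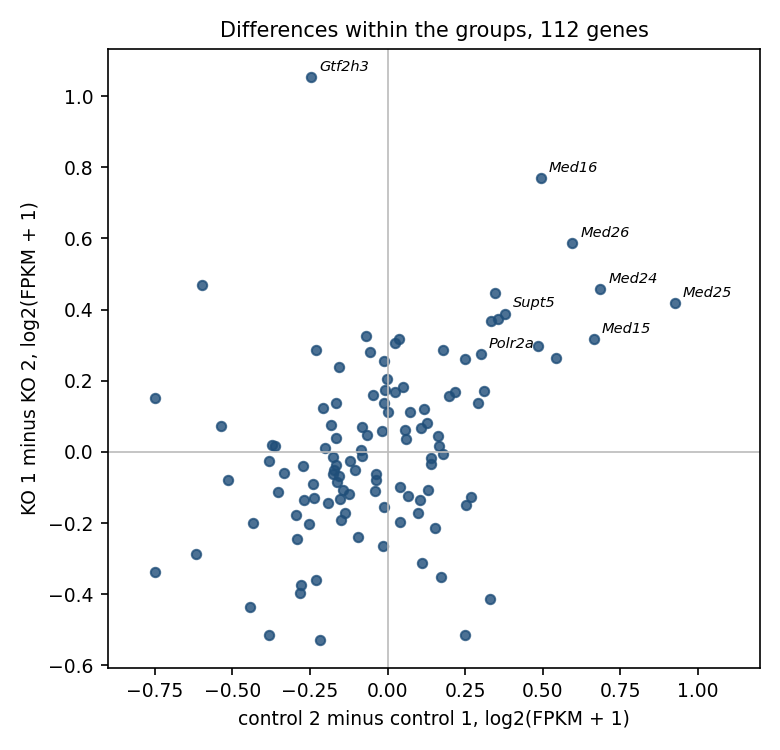
Difference within the control group (control 2 minus control 1, x axis) and within the KO group (KO 1 minus KO 2, y axis) in log2(FPKM + 1) for the 112 tested genes. Each point is 1 gene, and a few are named. The points lean to the upper right and lower left (Pearson r 0.41), with Med16, Med24, Med25 and Med26 at the upper right, while Gtf2h3 stands apart because of its low value in KO 2.

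The 19 genes that were not tested comprised 17 protein-coding genes with a mean FPKM of at most 5 in both groups, the antisense gene Med9os, listed at 0 in all 4 libraries, and the pseudogene Supt4b. Among them were Taf4 (3.41 to 4.73) and Taf10 (2.63 to 5.71), and 45.9% of the exonic length of Taf10 overlaps Ilk on the other strand, with a mean FPKM of 58.2. Taf15 had 1.44 and 1.43 in control and 0.70 and 0.46 in KO. The germ cell paralogs Taf7l and Gtf2a1l were at most 0.06 and 0.37, and Med12l at most 0.41, whereas their relatives Taf7, Gtf2a1 and Med12 were tested, with mean FPKM of 24.4, 17.9 and 15.6.

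Genes of the same pathway that the naming rule did not cover were described from a separate list of 37 initiation and elongation partners, of which 28 were tested. At an unadjusted p below 0.05, 2 were higher and 1 lower in KO, or 10.7%, beside 16.2% of all genes tested (8.61% higher and 7.57% lower). None had an adjusted p below 0.05, where 0.589% of all genes did. Cdk11b, a kinase of transcription and splicing, had an FPKM of 259.97 and 213.97 in control and 144.51 and 132.34 in KO, which gave a log2 fold change of -0.77 (SE 0.13, adjusted p = 0.0647 by limma). Elob, which encodes elongin B, had 390.13 and 367.90 in control and 529.63 and 597.98 in KO, which gave a log2 fold change of 0.57 (SE 0.11, adjusted p = 0.0821). Elongin B also serves ubiquitin ligases. Its partner Eloc had 244.22 and 243.00 in control and 204.23 and 212.78 in KO, which gave a log2 fold change of -0.22 (adjusted p = 0.344).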

How the data were processed

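RNA-seq of LI Treg cells was used, with 2 control and 2 KO libraries. Paired-end reads (150 bp) were aligned by the authors with STAR 2.5 to GRCm38, and RSEM 1.2 was used for quantification. The authors deposited FPKM for 53379 genes, rounded to 2 decimals, in which 2172 of the 5000 highest ranks hold the same value in all 4 columns. No source used here names the step that set this distribution. Precision rests on 2 pools per group, since FPKM in this form give no depth and no count test could be applied.

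Gene types, positions and overlaps came from GENCODE M21 (GRCm38), in which 53274 identifiers were found. Protein-coding genes whose mean FPKM exceeded 5 in control or KO were fitted with limma 3.58.1 in R 4.3.3 on log2(FPKM + 1), with KO against control, no covariate and an empirical Bayes trend. P-values are two-sided, and adjusted values follow Benjamini-Hochberg over 7639 genes. The script was tested on simulated data. Similar transcripts were found by megablast, and promoters came from RefSeq (GRCm38.p6). Python 3.11.15, pandas 2.3.3 and matplotlib 3.10.9 served for tables and figures.

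The members and lists were chosen with earlier results of these data known. Named genes were Setd2, all members with an unadjusted p below 0.05 (at most 15 in each direction), the member with the highest mean FPKM of each role, and elongation and kinase genes listed by role. Other genes were named after their values were seen. Alternatives were pseudocounts of 0.1 and 5, a filter at 1 or none, all gene types, median centring, no trend, the replicate number as a block, and each library left out.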

Additional observations from a re-analysis of the deposited data

How the results depend on the processing

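Over all genes tested, 658 genes were higher and 578 lower in KO by unadjusted p, and 24 and 21 by adjusted p, both at a threshold of 0.05. The adjusted counts were 16 and 11 with a filter at a mean FPKM of 1, 8 and 3 without a filter (1198 genes higher at an unadjusted p), 5 and 8 with all gene types, and 1 and 2 without a trend. With the replicate block they were 15 and 12, and the unadjusted counts 419 and 377. Deviations of same-numbered libraries correlated at r = -0.305 over all genes tested. This is the r of 0.30 between control 2 over control 1 and KO 1 over KO 2, with its sign turned. An r over genes of 4 libraries cannot show whether the numbers pair the libraries. A crossed pairing of control 1 with KO 2, chosen after seeing the data, gave 1008 and 983 unadjusted and 240 and 225 adjusted calls over all genes, and 12 and 13 unadjusted and 4 and 1 adjusted calls among the machinery genes. With each library left out, the unadjusted counts ran from 330 to 650 higher and from 314 to 600 lower, and the adjusted counts from 1 to 36 and from 1 to 30.

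Among the machinery genes, the 7 higher and 8 lower calls became 11 higher without a filter and 5 lower (and 5 higher) with the replicate block. They ran from 5 to 12 higher and from 4 to 9 lower with each library left out, and the adjusted calls stayed at 0 higher and ran from 0 to 1 lower. Of the 15 genes called, 5 lost their unadjusted call with the replicate block, 3 without a filter, 2 without a trend and 1 with all gene types. Those lost with the block were Polr2h, Taf11, Supt16, Taf1b and Gtf2h5, whose unadjusted limma p-values there were 0.0810, 0.0793, 0.0595, 0.104 and 0.119. None lost it with either pseudocount, a filter at 1 or median centring. No called gene changed sign. Among Setd2 and the uncalled machinery genes described singly, log2 fold changes crossed 0 with a library left out for Setd2 (-0.30 to 0.17), Aff1 (-0.34 to 0.15), Ccnt1 (-0.12 to 0.036), Cdk13 (-0.23 to 0.22), Cdk8 (-0.36 to 0.078), Ell2 (-0.015 to 0.067), Gtf2f1 (-0.11 to 0.091), Ints11 (-0.064 to 0.23), Med28 (-0.074 to 0.10), Nelfb (-0.11 to 0.15), Rtf1 (-0.16 to 0.36), Ssrp1 (-0.14 to 0.17), Supt5 (-0.29 to 0.10), Ints13 (-0.19 to 0.026), Ints10 (-0.26 to 0.11), Polr2b (-0.11 to 0.049), Supt3 (-0.28 to 0.47) and Gtf2h1 (-0.083 to 0.0041). Other uncalled genes also crossed 0 and are not listed. The cause of these shifts was not tested.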

Other observations

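Genes of the other nuclear RNA polymerases were listed for comparison. Of 15 genes whose names start with Polr1 or Polr3, 13 were tested. Among these, 10 had a log2 fold change below 0, beside 3867 of all 7639 genes tested, and the median was -0.09. Polr3d, a subunit of RNA polymerase III, was the only one of the 13 with an unadjusted p below 0.05. Its FPKM was 11.88 and 16.59 in control 1 and 2, and 9.19 and 7.53 in KO 1 and 2, a log2 fold change of -0.69 (SE 0.21, adjusted p = 0.201 by limma). Polr3c had 25.63 and 25.83 in control and 33.12 and 30.87 in KO (log2 fold change 0.30, adjusted p = 0.319). Polr1d, which is shared by RNA polymerases I and III, had the highest mean FPKM of this list at 125.0, and its log2 fold change was -0.08.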
